A study of Homo sapiens with 16 samples.

Results

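FOXB1 KO cells were compared with FOXB1 Het cells at day 3 of neural crest induction, across all genes with at least 1 FPKM (fragments scaled to transcript length and library size) in either group. Of 23284 genes listed for this pair of groups in the authors' deposited table, 13628 reached that level and 13557 of them were tested. Both groups are lines of WA01, an established human embryonic stem cell line. They were edited with CRISPR/Cas9 and a single guide RNA at the translational start of FOXB1, plated at 20000 cells per cm2 and induced with 3 µM CHIR99021, a GSK3 inhibitor that activates WNT signalling, with a ROCK inhibitor present at the start. The labels call the day 3 cells pre-neural crest and give 2 replicate libraries of poly-adenylated RNA for each group. The labels do not state how many clones stand behind each genotype, so line and genotype cannot be told apart here. The deposited table names its edited groups HET and HOMO, and HOMO was read as the KO line. It gives 1 FPKM per gene and group and no value per library, so the spread between replicates can be read from the deposited test scores alone, and the depth of the libraries is unknown. Nothing in the labels says that the 2 libraries of a group came from separate cultures, so that spread may be technical. Each log2 difference below is KO minus Het, computed from the FPKM values, with the standard error (SE) that the deposited score implies.

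FOXB1 is a forkhead transcription factor of the developing neural tube. The neural crest arises at the border between the neural plate and the surface ectoderm, under WNT, BMP and FGF signals, and its cells later lose epithelial contacts and migrate. Stem cells on this path pass out of pluripotency, a state held by POU5F1, SOX2 and NANOG and supported by NODAL signalling, and activate border genes such as PAX3, MSX1 and TFAP2A before the crest specifiers FOXD3 and SOX10.

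Genes higher in KO than in Het included 9 of 17 tested pluripotency and NODAL genes, 6 of 13 epithelial genes, 7 of 22 FGF and ERK genes and 5 of 25 p53 targets, and no member of these lists was called lower. A member under 1 FPKM in Het entered these counts through its KO level alone. NANOG stood at 0.797 FPKM in Het and 6.76 FPKM in KO, a log2 difference of 3.09 (SE 0.66). CDH1, the epithelial cadherin, stood at 0.442 and 7.83 FPKM, a log2 difference of 4.15 (SE 0.61). Fewer genes were lower in KO, among them the secreted WNT modulator SFRP4, which stood at 4.19 FPKM in Het and 0.116 FPKM in KO (log2 -5.17, SE 0.88). A call required a q-value under 0.05 in the authors' deposited table. By that rule 316 genes were higher in KO, or 2.33% of those tested, and 75 were lower, or 0.553%. In either direction 391 genes, or 2.88%, were called, and 80.8% of the calls were higher in KO. The deposited q-values were adjusted over all 15 comparisons of the table, and with adjustment over the tests of this comparison alone 160 genes were higher and 40 lower.

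**Figure D1:**
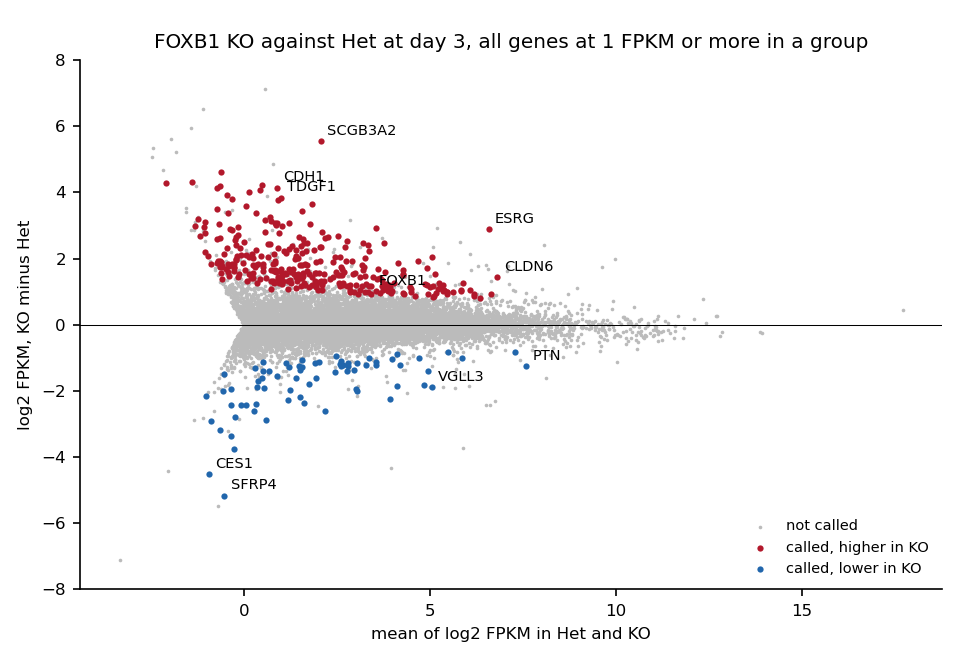
Each point is 1 gene above 0 FPKM in both groups. The horizontal axis is the mean of log2 FPKM in Het and KO and the vertical axis the log2 difference, KO minus Het. Red points are called genes higher in KO and blue points called genes lower in KO, and the red points outnumber the blue ones over most of the range of levels, while FOXB1, with a log2 difference of 1.00, is not called.

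The median log2 difference over the genes at 1 FPKM or more was 0.02, with quartiles of -0.19 and 0.23. Called genes had a median log2 difference of 1.63 where higher and -1.47 where lower. Among them 104 were higher by a log2 difference of at least 2, and 23 were lower by as much. The median SE was 0.52 over all tested genes, 0.69 at 1 to 3 FPKM and 0.42 at 100 FPKM or more. The smallest called difference was 0.81, and smaller differences went uncalled, which does not show that they were absent. For 11 called genes the difference was under 2 SE, since the deposited p-values are smaller than a normal reading of the scores gives. Of all genes passing the filter, 952 had an unadjusted p below 0.05 in the authors' deposited table.

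The edited gene itself was measured first as a check of the labels. FOXB1 lies on chromosome 15 from 60296421 to 60298142 (hg19). It stood at 7.73 FPKM in Het, 15.5 FPKM in KO and 18.3 FPKM in the wild-type group of the same day. Its log2 difference of 1.00 (SE 0.59) was not called (q = 0.116 in the authors' deposited table). At day 5 it stood at 4.47 FPKM in Het and 1.86 FPKM in KO, a log2 difference of -1.26 that was not called either (q = 0.0924 in the authors' deposited table). Since such an edit can leave the amount of messenger RNA as it is, FOXB1 RNA does not check the genotype labels.

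The wild-type group gives a level to set beside both edited lines. The labels have 4 wild-type libraries from 2 isogenic lines per day, whereas the table lists a single group for wild type, and which libraries it holds is not given in the sources used here. It was used as a level only. Of 311 genes higher in KO with a wild-type level above 0, the wild-type level was nearer Het for 202 and nearer KO for 109 on the log2 scale. Among 74 such genes lower in KO, it was nearer Het for 50 and nearer KO for 24. Both orders therefore occur among the called genes. For some genes KO was the line further from wild type, and for others Het was.

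The pluripotency and NODAL genes had the largest share of calls among lists with more than 10 tested members. Of 17 tested, 9 were higher and 0 lower in the authors' deposited table, and the list median was a log2 difference of 2.04, beside 0.02 for all genes. POU5F1, the OCT4 factor, stood at 16.4 FPKM in Het, 67.5 FPKM in KO and 45.7 FPKM in wild type, a log2 difference of 2.04 (SE 0.47). Its near-identical retrocopies were called in the same direction, POU5F1B at 2.90 and 14.8 FPKM and POU5F1P3 at 3.93 and 21.6 FPKM in Het and KO. How reads were divided among these copies is not given in the sources used here, so the 3 values are uncertain and not independent.

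Within the NODAL arm, NODAL, a ligand of the TGF-beta family, stood at 0.620 FPKM in Het, 5.22 FPKM in KO and 0.642 FPKM in wild type (log2 3.07, SE 0.68). TDGF1, its co-receptor, stood at 0.531 FPKM in Het, 7.62 FPKM in KO and 0.467 FPKM in wild type (log2 3.84, SE 0.75). FOXH1, the forkhead partner of the SMAD proteins in NODAL signalling, stood at 1.86 FPKM in Het, 9.47 FPKM in KO and 3.35 FPKM in wild type (log2 2.35, SE 0.72). For the ligand and its co-receptor, Het and wild type were close together and KO stood apart.

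The secreted inhibitors of NODAL were not called. CER1 stood at 0.126 FPKM in Het and 17.5 FPKM in KO (q = 0.0666 in the authors' deposited table), with a log2 difference of 7.12 and an SE of 1.11. LEFTY1 stood at 0.0292 and 1.18 FPKM with an SE of 2.18 on its log2 difference. GDF3, a TGF-beta family ligand of pluripotent cells, was listed at 0 in Het and at 3.90 FPKM in KO and was called, and it lies outside the lists.

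The other called members were higher in KO over a wide range of levels. ESRG, a noncoding RNA abundant in pluripotent cells, stood at 35.2 FPKM in Het, 260.4 FPKM in KO and 120.4 FPKM in wild type (log2 2.89, SE 0.42). L1TD1, an RNA-binding protein of pluripotent cells, stood at 16.8 FPKM in Het, 54.8 FPKM in KO and 26.3 FPKM in wild type (log2 1.71, SE 0.42). DNMT3B, a DNA methyltransferase, stood at 61.5 FPKM in Het, 108.0 FPKM in KO and 73.3 FPKM in wild type (log2 0.81, SE 0.41). The DNMT3B call was lost with adjustment over this comparison alone and with normal p-values of the scores. PRDM14, a regulator of naive pluripotency, was the member with the wild-type level above both lines, at 1.83 FPKM in Het, 9.38 FPKM in KO and 14.3 FPKM in wild type (log2 2.36, SE 0.58).

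Other genes of pluripotent cells were not called. SOX2, shared by pluripotent and neural cells, stood at 95.0 FPKM in Het and 75.5 FPKM in KO (log2 -0.33, SE 0.45). SALL4 differed by 0.06 (SE 0.41), LIN28B by -0.25 (SE 0.40) and DPPA4 by 0.27 (SE 0.42). ZFP42 stood at 31.7 FPKM in Het and 53.5 FPKM in KO (q = 0.0771 in the authors' deposited table), and LIN28A at 456.7 and 629.0 FPKM. Over the 17 tested list members, called or not, 15 differences were above 0 and 2 below. An unadjusted p below 0.05 in that table was reached by 11 of them, all higher in KO. The 8 markers of pluripotent cells summed to 178.8 FPKM in Het, 367.0 FPKM in KO and 252.2 FPKM in wild type, with none at 0 and 6 of them called higher. In bulk RNA, fewer cells of a type and less RNA per cell cannot be told apart. The list median depended on low values, being 1.07 with 0.1 added to each FPKM, 0.74 with 1 added and 0.78 over members at 1 FPKM in both groups.

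Promoter sequence was at hand for 5 of the 15 called members of the pluripotency and epithelial lists, from RefSeq on build GRCh38.p14. The 250 bases before the start of NANOG and of NODAL are shown because both genes were much higher in KO (8.49-fold for NANOG and 8.41-fold for NODAL). They are printed 5′ to 3′ in the direction of the gene, and capitals mark the POU part of the OCT4 site, ATGCAAA on either strand. NANOG lies on the plus strand at chr12:7789152-7789401 and NODAL on the minus strand at chr10:70441682-70441931.
NANOG: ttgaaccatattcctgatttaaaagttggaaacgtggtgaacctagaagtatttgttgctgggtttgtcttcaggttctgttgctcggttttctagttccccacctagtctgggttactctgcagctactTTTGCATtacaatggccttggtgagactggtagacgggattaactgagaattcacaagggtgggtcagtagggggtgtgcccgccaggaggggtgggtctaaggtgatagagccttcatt
NODAL: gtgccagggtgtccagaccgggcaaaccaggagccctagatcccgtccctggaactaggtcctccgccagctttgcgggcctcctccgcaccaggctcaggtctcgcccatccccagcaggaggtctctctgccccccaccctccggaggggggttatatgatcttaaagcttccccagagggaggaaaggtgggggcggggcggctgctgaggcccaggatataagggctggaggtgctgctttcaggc
The match in NANOG starts at base 131 of its window. NODAL held none of the 4 motifs searched, and neither did the other windows taken, those of CLDN6, DNMT3B and L1TD1. The POU part was in 3.98% of all 27305 promoter windows of this length, 2.66% of those of tested genes, 5.08% of those of genes higher in KO (10 of 197 with a sequence) and 5.56% of those of genes lower in KO (3 of 54). The motif AACAAAG, shared by SOX and TCF/LEF factors, was in 4.54%, 2.78%, 5.58% and 5.56% of the same sets. The forkhead motif TGTTTAC was in 2.98%, 1.75%, 2.54% and 0 of 54, and the E-box CACCTG of SNAI and ZEB repressors in 17.5%, 14.9%, 18.8% and 11.1%. Each motif was searched on both strands, none of them overlaps another, and these shares were not tested.

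Of 13 tested epithelial genes, 6 were higher and 0 lower in the authors' deposited table. With adjustment over this comparison alone 5 were called, and with normal p-values of the scores 2. The list median was 1.43, or 0.29 with 1 added to each FPKM and 0.82 over members at 1 FPKM in both groups. The called members CDH1, ESRP1, CDH3 and PRSS8 were under 1 FPKM in Het, so they passed the filter through their KO level alone. CDH1, which joins epithelial cells, stood at 0.442 FPKM in Het, 7.83 FPKM in KO and 1.01 FPKM in wild type. ESRP1, an epithelial splicing factor, stood at 0.145 FPKM in Het, 2.56 FPKM in KO and 0.188 FPKM in wild type (log2 4.14, SE 0.85). CLDN6, a tight junction claudin of pluripotent cells, was the most abundant member at 68.6 FPKM in Het, 184.8 FPKM in KO and 109.0 FPKM in wild type (log2 1.43, SE 0.41).

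CDH3, the placental cadherin, stood at 0.576 FPKM in Het and 2.76 FPKM in KO (log2 2.26, SE 0.64). EPCAM, an epithelial adhesion molecule, stood at 1.47 FPKM in Het and 6.94 FPKM in KO (log2 2.24, SE 0.66). PRSS8, a membrane protease of epithelia, stood at 0.691 FPKM in Het and 2.06 FPKM in KO (log2 1.57, SE 0.71). In 5 of the 6 called members the wild-type level was nearer Het. The repressors of epithelial genes were not called: SNAI2 stood at 9.85 FPKM in Het and 5.07 FPKM in KO (log2 -0.96, SE 0.54), ZEB2 at 25.3 and 21.5 FPKM, and ZEB1 at 2.32 and 2.77 FPKM. Most epithelial members are also expressed by pluripotent stem cells, and the sum of pluripotent markers moved the same way. Its part in this result was not tested.

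FGF ligands and feedback genes of ERK signalling were higher in KO in 7 of 22 tested members and lower in 0, with a list median of 0.53 in the authors' deposited table. Among the ligands, FGF19 stood at 4.73 FPKM in Het, 19.1 FPKM in KO and 1.32 FPKM in wild type (log2 2.01, SE 0.57). FGF3 stood at 0.376 FPKM in Het, 1.98 FPKM in KO and 0.236 FPKM in wild type (log2 2.40, SE 0.97). Among the transcription factors induced by ERK, ETV4 stood at 2.68 FPKM in Het and 11.0 FPKM in KO (log2 2.04, SE 0.58), ETV5 at 1.73 and 4.54 FPKM (log2 1.40, SE 0.57) and EGR1 at 14.9 and 33.1 FPKM (log2 1.15, SE 0.46).

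The feedback inhibitors DUSP5 and SPRY4 were called as well. DUSP5, an ERK phosphatase, stood at 3.43 FPKM in Het and 11.1 FPKM in KO (log2 1.69, SE 0.56). SPRY4 stood at 4.77 FPKM in Het and 10.9 FPKM in KO (log2 1.20, SE 0.48). Other feedback genes were not called, with DUSP6 at 7.70 and 11.0 FPKM and SPRY2 at 22.8 and 22.1 FPKM. The wild-type level was nearer Het for 6 of the 7, and EGR1 was the exception at 36.7 FPKM. None of the 7 was called with normal p-values of the scores.

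For the 25 tested p53 targets the wild-type level was nearer KO for 22 and nearer Het for 3 on the log2 scale. Of these 25, 5 were higher in KO and 0 lower in the authors' deposited table, 24 of the differences were above 0, and the median was 0.68. CDKN1A, the inhibitor that halts the cell cycle, stood at 8.03 FPKM in Het, 24.1 FPKM in KO and 34.1 FPKM in wild type (log2 1.59, SE 0.49). RRM2B, a subunit of ribonucleotide reductase, stood at 11.2 FPKM in Het, 22.4 FPKM in KO and 24.5 FPKM in wild type (log2 1.00, SE 0.44). PMAIP1, which promotes apoptosis, stood at 2.00 FPKM in Het, 7.37 FPKM in KO and 2.29 FPKM in wild type (log2 1.88, SE 0.62).

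The remaining called members were PHLDA3, an AKT inhibitor, at 3.71 FPKM in Het, 11.2 FPKM in KO and 22.2 FPKM in wild type, and BTG2, an antiproliferative gene, at 7.49, 19.4 and 21.1 FPKM. Both lie on the long arm of chromosome 1, a region that was higher in KO as a whole. In 4 of the 5 called members the wild-type level was nearer KO, PMAIP1 being the exception. MDM2, the ubiquitin ligase that limits p53, stood at 15.4 FPKM in Het and 23.03 FPKM in KO (log2 0.58, SE 0.42) and was not called. An unadjusted p below 0.05 was reached by 14 members, all higher in KO. None was called with normal p-values of the scores.

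**Figure D2:**
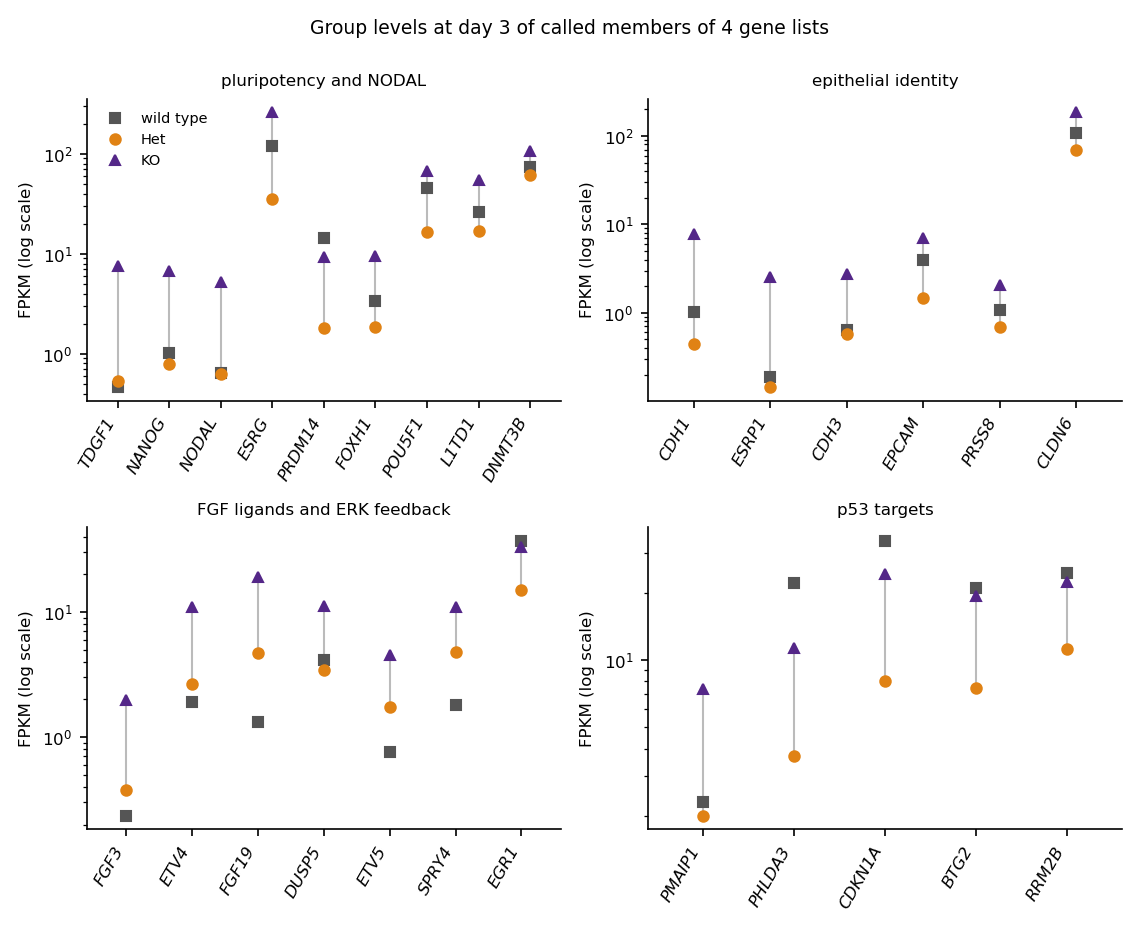
Points are the deposited FPKM of the wild-type, Het and KO groups at day 3 on a log axis, for the called members of 4 lists, and grey lines join Het and KO. The wild-type squares lie nearer the Het circles for 6 of 9 pluripotency, 5 of 6 epithelial and 6 of 7 FGF genes, and nearer the KO triangles for 4 of 5 p53 targets.

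Neural plate border genes were higher in KO in 5 of 14 tested members and lower in 0 in the authors' deposited table, with a list median of 0.58. With adjustment over this comparison alone 3 were called, and with normal p-values of the scores 2. TFAP2A, a border and crest transcription factor, stood at 3.85 FPKM in Het, 14.6 FPKM in KO and 0.338 FPKM in wild type (log2 1.93, SE 0.53). DLX5, a homeobox gene of the border, stood at 0.771 FPKM in Het and 3.20 FPKM in KO (log2 2.05, SE 0.86). PRDM1, a border regulator, stood at 0.343 FPKM in Het and 2.17 FPKM in KO (log2 2.66, SE 0.66). GBX2, a homeobox gene of the hindbrain side and the border, stood at 1.74 FPKM in Het, 6.07 FPKM in KO and 12.3 FPKM in wild type (log2 1.80, SE 0.70). ZIC1 was the fifth, at 0.831 FPKM in Het and 1.98 FPKM in KO (log2 1.25, SE 0.64).

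The border genes with the highest levels did not differ between the lines. PAX3 stood at 29.3 FPKM in Het and 36.5 FPKM in KO (log2 0.32, SE 0.46), beside 1.79 FPKM in wild type. MSX1 stood at 9.42 FPKM in Het and 13.4 FPKM in KO (log2 0.51, SE 0.54), and MSX2 at 18.2 and 18.0 FPKM (log2 -0.02, SE 0.48). PAX7 stood at 8.80 FPKM in Het and 14.4 FPKM in KO (log2 0.71, SE 0.49). The 10 neural crest markers summed to 63.4 FPKM in Het, 83.9 FPKM in KO and 15.1 FPKM in wild type, with 1 called, TFAP2A.

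Crest specifiers were mixed. Of 17 tested, 1 was higher and 2 were lower in KO in the authors' deposited table, with a median of -0.04. RXRG, a retinoid X receptor on the long arm of chromosome 1, stood at 1.29 FPKM in Het and 5.16 FPKM in KO (log2 1.99, SE 0.65). SOX5, a crest SOX factor, stood at 4.60 FPKM in Het and 1.77 FPKM in KO (log2 -1.38, SE 0.55). ID2, an inhibitor of basic helix-loop-helix factors, stood at 207.6 FPKM in Het and 117.3 FPKM in KO (log2 -0.82, SE 0.41). The defining crest factors were at low levels in both lines at day 3, SOX10 at 0.773 and 1.27 FPKM and FOXD3 at 2.71 and 3.28 FPKM in Het and KO. Of 16 crest migration genes, EDNRB, the endothelin receptor of migrating crest, was the member called, at 0.722 FPKM in Het and 5.77 FPKM in KO (log2 3.00, SE 0.71).

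Neural tube genes ran in both directions. Of 15 central neural progenitor genes, 1 was higher and 2 were lower in KO in the authors' deposited table, with a median of -0.47. OLIG3, a dorsal progenitor factor, stood at 1.23 FPKM in Het, 7.45 FPKM in KO and 11.96 FPKM in wild type (log2 2.59, SE 0.64). DBX1, a homeobox gene of intermediate progenitors, stood at 7.06 FPKM in Het, 1.36 FPKM in KO and 18.4 FPKM in wild type (log2 -2.38, SE 0.75). SOX1, an early neural factor, stood at 5.63 FPKM in Het, 2.52 FPKM in KO and 25.9 FPKM in wild type (log2 -1.16, SE 0.56). The wild-type level lay above both lines for all 3 of these genes.

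Regional identity genes were few and mostly not called. OTX1, a forebrain and midbrain homeobox gene, stood at 2.43 FPKM in Het and 0.451 FPKM in KO (log2 -2.43, SE 0.73). It was the 1 call among 3 forebrain genes tested in the authors' deposited table. WNT1, the isthmus ligand, was the 1 call among 11 midbrain and isthmus genes. EGR2, a hindbrain gene of the HOX and caudal list, was higher in KO, at 2.27 FPKM in Het and 14.7 FPKM in KO (log2 2.70, SE 0.55).

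Of 28 WNT ligands, modulators and targets tested, 3 were lower in KO and 0 higher in the authors' deposited table, and the list median was 0.14. SFRP4, a secreted frizzled-related protein, stood at 10.9 FPKM in wild type, above both lines. RSPO2, a secreted potentiator of WNT signalling, stood at 1.49 FPKM in Het and 0.198 FPKM in KO (log2 -2.90, SE 0.80). WNT1 stood at 36.8 FPKM in Het, 18.3 FPKM in KO and 14.8 FPKM in wild type (log2 -1.01, SE 0.47). DKK4, a secreted WNT inhibitor outside the list, was listed at 0 in Het and wild type and at 6.74 FPKM in KO, and it was called.

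The BMP list held 3 higher and 0 lower calls of 17 tested in the authors' deposited table, with a median of 0.34. BMP4, a ligand that patterns the border, stood at 4.10 FPKM in Het, 9.55 FPKM in KO and 0.153 FPKM in wild type (log2 1.22, SE 0.60). BAMBI, a pseudoreceptor that damps BMP signals, stood at 2.84 FPKM in Het and 7.04 FPKM in KO (log2 1.31, SE 0.62). SMAD7, an inhibitory SMAD, stood at 1.80 FPKM in Het and 4.98 FPKM in KO (log2 1.47, SE 0.63). All 3 were lost with adjustment over this comparison alone. HES1, a transcriptional target of Notch, was the 1 call among 14 Notch genes, at 10.5 FPKM in Het and 25.2 FPKM in KO (log2 1.26, SE 0.54), and it too was lost under that adjustment.

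Retinoic acid genes ran in both directions. The degrading enzyme CYP26C1 stood at 33.4 FPKM in Het, 6.99 FPKM in KO and 74.4 FPKM in wild type (log2 -2.26, SE 0.60). The receptor RARB stood at 4.30 FPKM in Het and 1.81 FPKM in KO (log2 -1.25, SE 0.60). DHRS3, which reduces retinal, stood at 0.559 FPKM in Het and 2.46 FPKM in KO (log2 2.14, SE 0.73). The median of the list was 0.30.

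Markers of the primitive streak and mesoderm were at 1 FPKM or more for 0 of 10 in Het and 4 of 10 in KO. Of 6 tested members of the streak, mesoderm and endoderm list, 2 were higher in KO in the authors' deposited table. T, the brachyury gene, stood at 0.139 FPKM in Het and 1.29 FPKM in KO (log2 3.21, SE 0.95). KDR, the VEGF receptor of early mesoderm, stood at 3.45 FPKM in Het and 13.1 FPKM in KO (log2 1.93, SE 0.48). The 10 streak and mesoderm markers summed to 1.54 FPKM in Het and 17.5 FPKM in KO. Most of the KO sum came from MIXL1, at 0.322 and 9.35 FPKM, and EOMES, at 0.0486 and 4.46 FPKM, neither of which was called. The 7 endoderm markers summed to 0.0877 FPKM in Het and 2.23 FPKM in KO.

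Of 12 placode genes, OTX1 was lower in KO and FOXI3 higher in the authors' deposited table. FOXI3, a placode forkhead factor, stood at 1.05 FPKM in Het, 5.12 FPKM in KO and 5.28 FPKM in wild type (log2 2.29, SE 0.77). Of 16 proneural and neuronal genes, 3 were higher and 0 lower in KO in the authors' deposited table. STMN2, a neuronal microtubule regulator, stood at 5.79 FPKM in Het and 32.0 FPKM in KO (log2 2.46, SE 0.51). CALB1, a calcium-binding protein, stood at 0.222 and 1.83 FPKM, and NEFL, a neurofilament subunit, at 1.43 and 3.59 FPKM. S100B, the call among 8 melanocyte and glia genes, stood at 1.13 FPKM in Het and 7.05 FPKM in KO (log2 2.64, SE 0.72). The 7 neuron markers summed to 105.1 FPKM in Het and 136.2 FPKM in KO, with STMN2 giving most of the difference, and 5 of them reached 1 FPKM in Het and 4 in KO.

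In the axon guidance, matrix, laminin and cadherin lists every called member was higher in KO. Of 27 axon guidance genes, 5 were higher and 0 lower in the authors' deposited table, or 2 with adjustment over this comparison alone and 0 with normal p-values of the scores. SEMA6A, a transmembrane semaphorin, stood at 38.2 FPKM in Het and 90.7 FPKM in KO (log2 1.25, SE 0.41), and UNC5B, a netrin receptor, at 2.25 and 6.64 FPKM (log2 1.56, SE 0.50). EFNA1, an ephrin on the long arm of chromosome 1, stood at 0.666 and 2.34 FPKM. Single calls came from MMP2, a matrix protease, at 24.6 and 58.4 FPKM, and from LAMC1, a laminin chain on the long arm of chromosome 1, at 27.2 and 62.1 FPKM. Among 14 cadherins, CDH10 and PCDH1 were higher. Among 21 contractile genes and YAP targets, ANKRD1 (2.34 FPKM in Het, 0.875 FPKM in KO) and F3 (4.61 and 1.89 FPKM) were lower and none was higher.

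Metabolic, immune and growth lists held 2 calls at most. CA12, a carbonic anhydrase induced by hypoxia, stood at 0.645 FPKM in Het and 5.19 FPKM in KO (log2 3.01, SE 0.60), and HK1, a hexokinase, at 29.1 and 59.8 FPKM, the 2 calls among 29 glycolysis and hypoxia genes in the authors' deposited table. TAP1, the peptide transporter of antigen presentation, stood at 0.333 and 1.46 FPKM, and IFITM1, an interferon-induced membrane protein, at 20.5 and 59.96 FPKM, the 2 calls among 23 interferon and antigen presentation genes in that table. PAPPA, a protease that cleaves IGF-binding proteins, stood at 4.60 FPKM in Het and 13.6 FPKM in KO (log2 1.57, SE 0.44). DLK1, an imprinted Notch-like ligand, stood at 54.4 FPKM in Het, 15.3 FPKM in KO and 151.0 FPKM in wild type (log2 -1.83, SE 0.49).

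For 7 lists no member was called in the authors' deposited table. Of 28 proliferation genes 0 had an unadjusted p below 0.05, and their median was -0.01. The 38 ribosomal protein genes had a median of -0.17, with 34 below 0 and 2 below an unadjusted p of 0.05. The 21 housekeeping genes had a median of 0.11 with 1 below that p, the 14 genes of the FOX family list, which leaves out FOXB1 and the forkhead genes FOXH1 and FOXI3 called in other lists, 0.20 with 1, the 22 ATF4 targets -0.02 with 3, and the 15 MYC and LIN28 genes -0.06 with 2. All 5 metallothioneins tested were below 0, with a median of -1.13 and 0 at an unadjusted p below 0.05. With adjustment over this comparison alone, and with normal p-values of the scores, the count was 0 in each of these lists too.

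**Figure D3:**
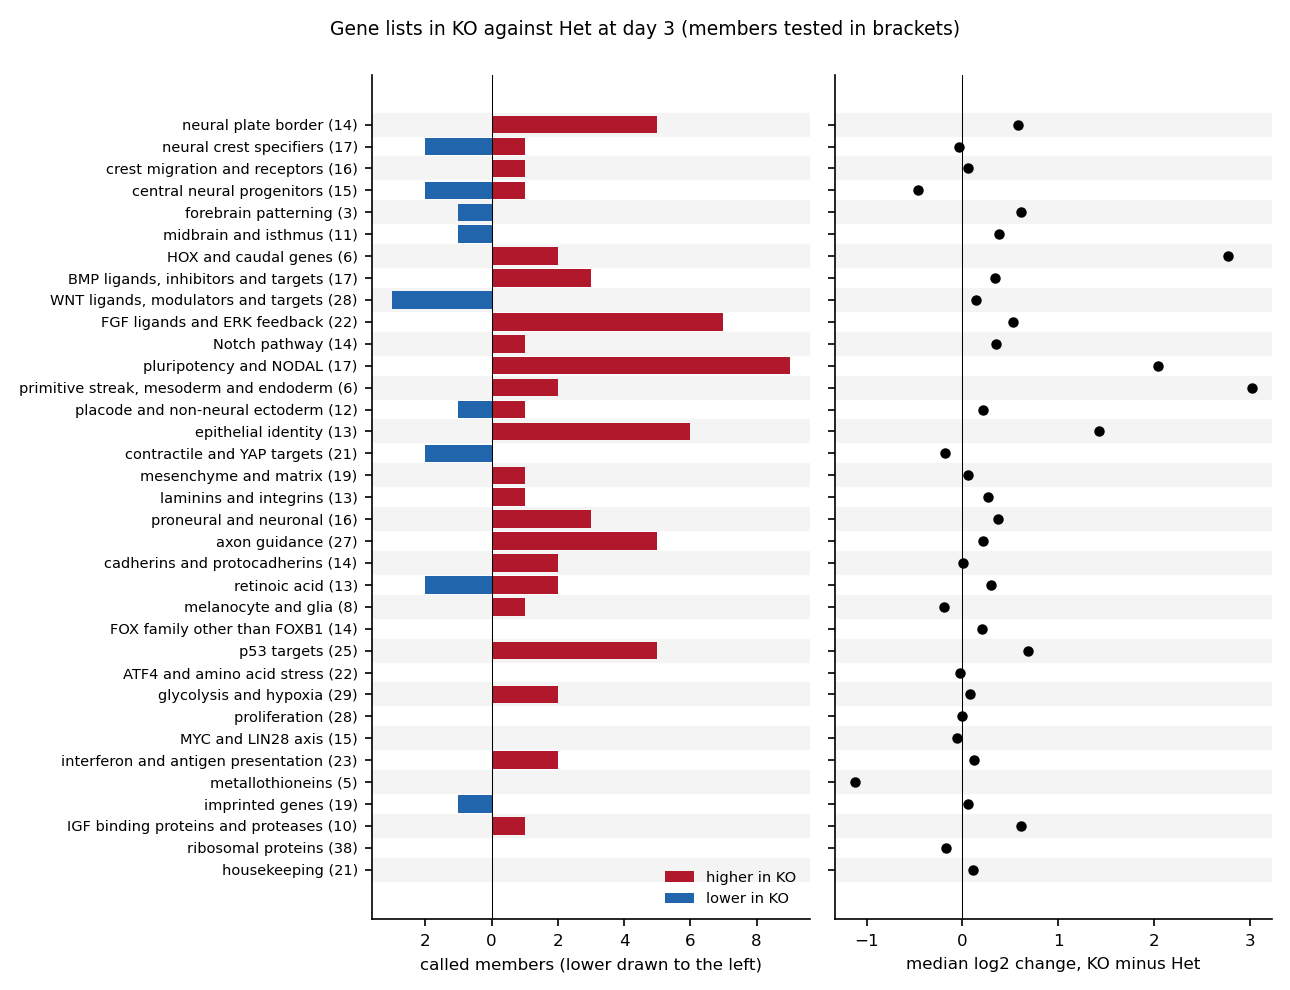
Left, bars give the number of called members of each list, with members lower in KO drawn to the left of 0 and the number tested in brackets. Right, points give the median log2 difference, KO minus Het, of members above 0 in both groups. The pluripotency list has the longest bar, with 9 of 17 tested members higher, and the HOX and streak lists have high medians that rest on 6 tested members each.

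The largest rises outside these lists included genes of no common group. SCGB3A2, a secretoglobin, had the largest log2 difference, 5.55 (SE 1.00), and stood at 0.613 FPKM in Het, 28.8 FPKM in KO and 29.2 FPKM in wild type. KO and wild type stood at similar levels for this gene, and Het was low. CXCL12, a chemokine, stood at 0.133 and 3.24 FPKM (log2 4.60), but its SE was 1.87. SCNN1A, an epithelial sodium channel subunit, differed by 4.30 (SE 1.02), the zinc finger gene ZNF354C by 4.22 (SE 0.71) and TRIML2 by 4.19 (SE 1.12). MPP1 differed by 4.27 (SE 1.84), PPP1R1B, a phosphatase inhibitor of neurons, by 4.08 (SE 0.81), the retroviral envelope gene ERVMER34-1 by 3.999 (SE 0.73) and TNMD, tenomodulin, by 3.92 (SE 0.96). Among the 12 largest rises the wild-type level was nearer KO on the log2 scale for 5 (SCGB3A2, CXCL12, SCNN1A, ZNF354C and ERVMER34-1) and nearer Het for 7.

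Besides DKK4 and GDF3, 3 genes listed at 0 in Het were called higher. PRAME, a cancer-testis antigen, was listed at 2.35 FPKM in KO, LOC100131138 at 3.90 FPKM and MLC1 at 1.09 FPKM. No fold is given for them, since no counts stand behind the 0. The abundant genes among the rises were ESRG, CLDN6, DNMT3B, CNIH4 (72.4 FPKM in Het, 138.7 FPKM in KO) and ADAR, an RNA-editing enzyme (52.3 and 100.5 FPKM). CNIH4 and ADAR lie on the long arm of chromosome 1.

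Among the 12 largest falls the wild-type level was nearer Het on the log2 scale for 10 and nearer KO for 2, RSPO2 (0.368 FPKM in wild type) and OTX1 (0.132 FPKM). CES1, a carboxylesterase, stood at 2.52 FPKM in Het, 0.110 FPKM in KO and 2.66 FPKM in wild type (log2 -4.52, SE 1.12). ZNF350, a zinc finger repressor, stood at 3.06 FPKM in Het, 0.227 FPKM in KO and 2.98 FPKM in wild type (log2 -3.75, SE 0.76). TNNI3, cardiac troponin I, stood at 4.11, 0.558 and 4.81 FPKM in the same order, PI15, a peptidase inhibitor, at 2.25, 0.325 and 2.69 FPKM, and TRIM61 at 3.03, 0.491 and 3.16 FPKM. LOC100506013 stood at 11.3 FPKM in Het, 1.83 FPKM in KO and 42.1 FPKM in wild type. ZBTB16 differed by -3.37 (SE 0.87), RWDD2B by -3.20 (SE 0.87) and DACH2, a retinal determination factor, by -2.42 (SE 0.82).

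The abundant genes among the falls were PTN, ID2, UBE2T, VGLL3 and FAM84B. PTN, the secreted growth factor pleiotrophin, stood at 295.7 FPKM in Het, 124.8 FPKM in KO and 134.0 FPKM in wild type (log2 -1.24, SE 0.41). VGLL3, a TEAD cofactor, stood at 63.8 FPKM in Het, 17.1 FPKM in KO and 191.8 FPKM in wild type (log2 -1.90, SE 0.43). UBE2T, a ubiquitin-conjugating enzyme, stood at 82.0 FPKM in Het and 41.2 FPKM in KO, and FAM84B at 60.1 and 33.8 FPKM. UBE2T was lower in KO although it lies on the long arm of chromosome 1.

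The long arm of chromosome 1, split off at the centromere, was higher in KO across its genes. The median log2 difference of the 585 genes there with at least 1 FPKM in both groups was 0.57, or 1.49-fold, and 93.2% of them were above 0. On the rest of chromosome 1 and on each other autosome and X, the medians ranged from -0.07 to 0.05. The region held 54 of the genes called higher, 17.1% of them, and 2 of those called lower, of 635 tested. Without the region, 262 genes were higher and 73 lower of 12922 tested. At day 5 the region's median was 0.45. Called genes named in it included CNIH4, ADAR, UBE2T, RXRG, LAMC1, EFNA1, PHLDA3 and BTG2. For all of these except UBE2T, which was lower in KO, the difference of the region and that of the gene cannot be told apart.

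**Figure D4:**
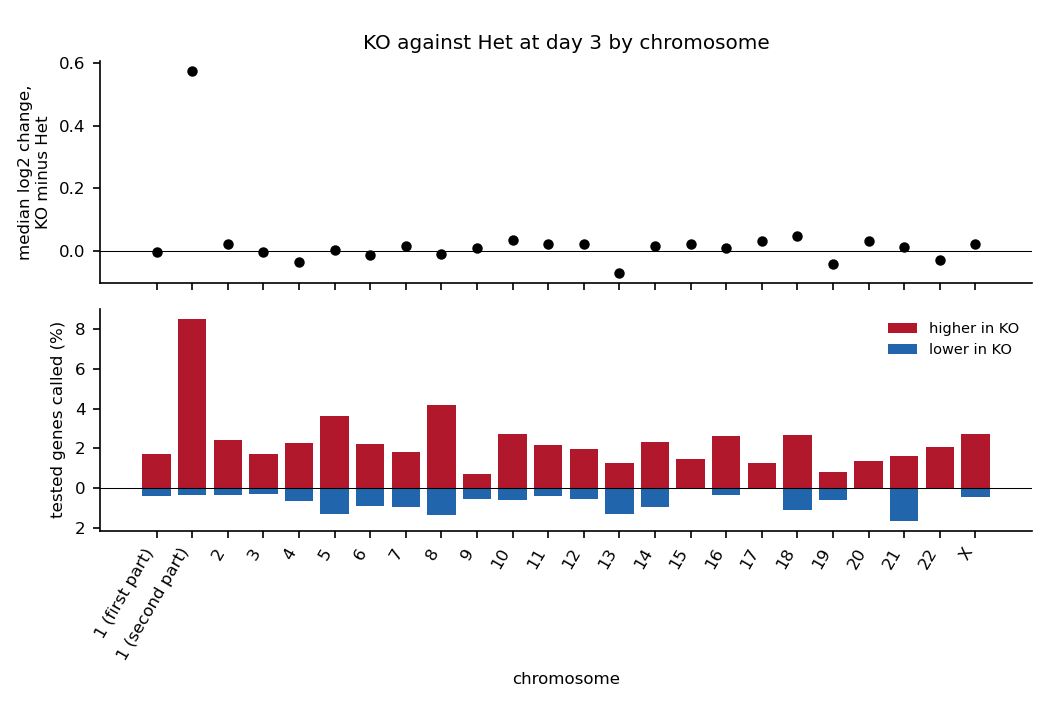
The upper panel gives the median log2 difference, KO minus Het, of genes at 1 FPKM or more in both groups, by chromosome, with chromosome 1 divided at the centromere. The lower panel gives the percentage of tested genes called, with genes lower in KO drawn below 0, and the second part of chromosome 1 stands apart in both panels with a median of 0.57 and 54 genes called higher.

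The same lines were compared at day 5 in other libraries, although the deposited q-values of both days were adjusted together. At day 5, 797 genes were higher in KO, or 5.69% of 14013 tested, and 359 were lower, or 2.56%, in the authors' deposited table. Of the 316 genes higher at day 3, 104 were higher at day 5 too, which is 32.9% of the day 3 list and 13.0% of the day 5 list. Of the 75 lower at day 3, 38 were lower at day 5, or 50.7% of the day 3 list and 10.6% of the day 5 list. The median day 5 difference was 0.94 for the genes higher at day 3 and -1.25 for those lower, beside 0.06 for all genes at day 5. CAV1 and TSPAN11 were higher at day 3 and lower at day 5, and CNTN2 and RWDD2B were lower and then higher.

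Lists differed in how many calls were shared by the days. Of the 9 pluripotency genes higher at day 3, 2 were higher at day 5, and the list median at day 5 was 0.29. NANOG stood at 0.944 FPKM in Het and 1.25 FPKM in KO at day 5, and NODAL at 0.852 and 0.893 FPKM. For FGF genes, 10 of 21 tested were higher at day 5 and 5 of the 7 called at day 3 were among them, with a median of 1.03. ETV4 differed by 3.78 at day 5 and DUSP5 by 1.77. Of 25 p53 targets, 0 were higher and 1 was lower at day 5, with a median of -0.32, and CDKN1A stood at 66.8 FPKM in Het and 56.1 FPKM in KO. Among the falls, SFRP4, CES1, PI15, VGLL3, CYP26C1 and DLK1 were lower at both days.

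**Figure D5:**
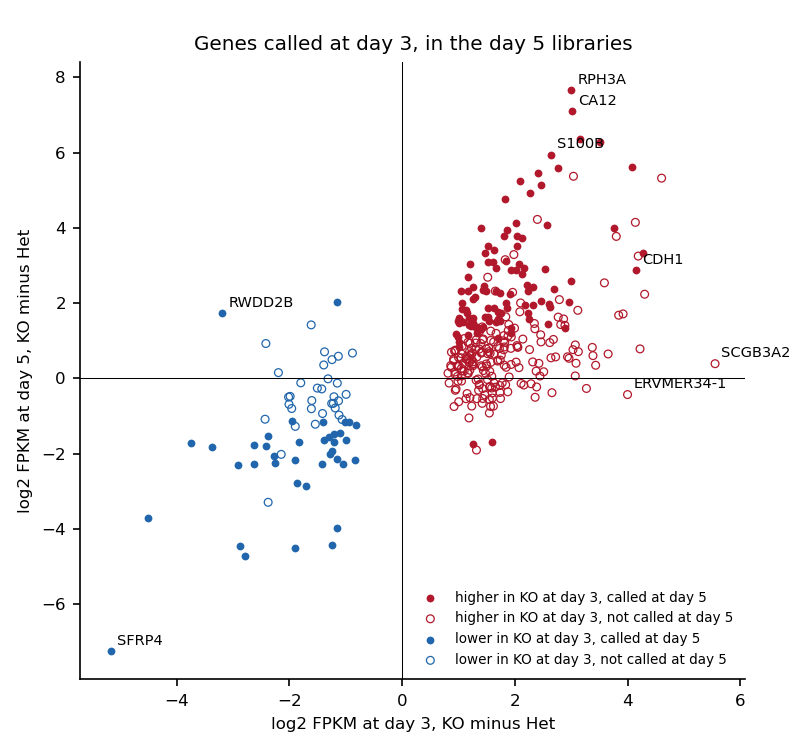
Each point is a gene called at day 3 and above 0 FPKM in both groups at both days, with its log2 difference, KO minus Het, at day 3 on the horizontal and at day 5 on the vertical axis. Filled points were called at day 5, open points were not. Of all calls, 104 genes higher at day 3 and 38 lower at day 3 were called in the same direction at day 5, and ERVMER34-1 and SCGB3A2 lie near 0 at day 5.

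Whether the KO minus Het difference changed between the days was tested for each gene as the difference of the log2 differences over its implied SE. Of 13665 genes tested, 24 were called, or 0.176%, with 17 larger at day 5 and 7 smaller, and 387 had an unadjusted p below 0.05. Of these 24 genes, 7 were also called at day 3. None of the pluripotency, epithelial, FGF or p53 genes was among them, so their smaller or larger day 5 values were not shown to differ from day 3. With the SE scaled to the deposited p-values, 203 genes were called, among them NANOG and NODAL (day 5 minus day 3 of -2.68 and -3.00), CLDN6 (-1.70), ETV5 and SPRY4 (2.60 and 1.84) and the p53 targets CDKN1A, DDB2, PHLDA3 and RRM2B. In simulated data of 13665 genes, the test with the full SE recovered 0% of genes changed by a log2 of 2. It recovered 86.5% of those changed by 4, and 56% and 94% with scaled SE. The simulated noise was normal with the scaled SE as its spread, so the full SE was too wide there by design. These shares therefore cannot show which SE suits the data.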

How the data were processed

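Poly-adenylated RNA was sequenced from 16 samples, of which the 4 Het and KO libraries of day 3 enter this comparison. Per the submitters' processing notes, the authors used TopHat2 2.1.1, hg19 and Cuffdiff 2.2.1, with an annotation version not given in the sources used here. For each gene and pair of groups the authors deposited the FPKM of both groups, a log2 fold change, a test score (fold change on the natural log scale divided by its SE), a p-value and a q-value. No deposited p-value is under 5e-05. Adjusting the 222234 tests of 15 comparisons together by Benjamini-Hochberg returns the deposited q-values within 5.28e-07.

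From these, log2 differences were taken from FPKM with no pseudocount, and a gene listed at 0 has none. A call is a deposited q-value below 0.05 with at least 1 FPKM in a group. Normal p-values of the scores are larger than those deposited. The scaled SE is the implied SE times 0.708 (0.709 at day 5). The difference between days was given a normal p (2-sided), adjusted by Benjamini-Hochberg. It and the calls remade within 20 GC bins were tested on simulated data, whose noise was drawn with the scaled SE as its spread. The day test gave 0 false calls with the full SE and 7 and 11 with the scaled SE. Since the noise was set this way, these counts do not check the scaled SE. The calls within GC bins recovered 87% and 95.5% of genes changed by a log2 of 2 and 4, with 9 and 13 false calls, over 11917 genes. GC content came from GENCODE 29 transcripts for 88.7% of genes.

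The genes named were FOXB1, the 12 calls furthest up and the 12 furthest down, the 5 most abundant called genes in each direction, called genes at 0 in a group, up to 4 called members of each of 35 lists and 10 genes that differ by day. Members and lists were chosen with earlier results of these data known. Uncalled genes, further called list members, the POU5F1 copies, the genes that turned between days and the marker genes were named after their values were seen. Y-linked genes, 3 of them called, and some other called list members are not reported here. Alternatives were other adjustments, thresholds, filters, pseudocounts, GC bins, centring on the median and leaving out regions. Python 3.11.15, pandas 2.3.3, numpy 2.4.6, scipy 1.17.1 and matplotlib 3.10.9 were used.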

Additional observations from a re-analysis of the deposited data

Results flagged for a closer look

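For 13 genes named here the KO minus Het difference at day 5 differed from that at day 3 by the test of the difference itself. Values are the day 5 minus the day 3 difference, with FPKM in Het and KO. MYC, a growth regulator, differed by 5.58, from 8.12 and 16.1 FPKM at day 3 to 2.21 and 208.4 FPKM at day 5. GABBR2, a GABA receptor subunit, differed by 6.01, from 0.751 and 0.561 FPKM to 0.0897 and 4.30 FPKM. SPARCL1, a matrix protein, differed by 5.16 and RHOJ, a small GTPase, by 4.59, both under 1 FPKM at day 3. RPH3A, a synaptic vesicle protein, differed by 4.67, DNAH9, a dynein chain, by 4.87 and CA12 by 4.09. RWDD2B differed by 4.93, from 1.95 and 0.213 FPKM to 1.61 and 5.33 FPKM. The difference was smaller or opposite at day 5 for NTRK2, a neurotrophin receptor (-4.87, from 4.47 and 6.54 FPKM to 14.3 and 0.712 FPKM), ADCY2, an adenylyl cyclase (-4.36), and ERVMER34-1 (-4.43, from 0.274 and 4.38 FPKM to 1.94 and 1.44 FPKM). TSPAN11, a tetraspanin, differed by -3.01 and CNTN2, a contactin, by 3.18, and both turned in direction between the days. Of these 13 genes, CA12, ERVMER34-1, RPH3A, RWDD2B, TSPAN11 and CNTN2 were called at day 3 in the authors' deposited table.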

How the results depend on the processing

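Every alternative below kept more genes higher than lower in KO. Beside 316 higher and 75 lower, adjustment over this comparison alone gave 160 and 40, normal p-values of the scores 72 and 21, q below 0.01 156 and 39, 1 FPKM in both groups 198 and 49, and 5 FPKM in a group 174 and 40. Within GC bins with calls remade, 205 were higher and 55 lower, and with calls remade without centring, an alternative chosen after seeing the data, 241 and 60. Leaving out the long arm of chromosome 1 was also chosen after seeing the data. Of the 91 named genes that were called, 59 passed with adjustment over this comparison alone and 35 with normal p-values. Of 89 that could be remade within GC bins, 68 passed. Genes called at both days in 1 direction were 142, and 77 with at least 1 FPKM in both groups at both days. Genes whose difference changed between days were 24, 203 with scaled SE and 6 with at least 1 FPKM in all 4 groups. Medians of 3 lists (HOX and caudal, pluripotency, streak) moved with 0.1 added and with 1 FPKM required in both groups, and of 4 with 1 added, the epithelial list being the fourth. The cause was not tested. No paired analysis was possible because the deposited table holds no value per library, and for the same reason no replicate could be left out. The depth is unknown.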

Other observations

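Some called genes outside the lists were singled out after their values were seen. Among surface and junction genes, CD9, a tetraspanin, stood at 4.74 FPKM in Het, 22.2 FPKM in KO and 13.2 FPKM in wild type at day 3. DSP, desmoplakin of the desmosome, stood at 1.70 FPKM in Het, 8.09 FPKM in KO and 1.94 FPKM in wild type. EGFR, the epidermal growth factor receptor, stood at 1.30 FPKM in Het, 7.19 FPKM in KO and 4.93 FPKM in wild type, and SPINT1, a protease inhibitor of epithelia, at 2.21, 6.52 and 10.7 FPKM.

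Genes used by neurons were among the rises and the falls. GAL, the neuropeptide galanin, stood at 0.902 FPKM in Het and 9.75 FPKM in KO, and GALP, galanin-like peptide, at 0.511 and 6.94 FPKM. GAD1, which makes GABA, stood at 2.86 FPKM in Het and 16.5 FPKM in KO, and CBLN1, a synaptic organiser, at 4.37 and 23.3 FPKM. GRIA1, a glutamate receptor subunit, was lower in KO, at 12.6 FPKM in Het and 4.85 FPKM in KO. The adhesion molecule NRCAM was lower as well, at 17.7 and 7.66 FPKM, and so was LRP2, an endocytic receptor of neuroepithelium, at 22.7 and 11.0 FPKM.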
